A study of Mus musculus with 6 samples.

Results

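The genes described here encode the proteins of the large (60S) subunit of the cytosolic ribosome. They were taken by symbol, as Rpl followed by a digit or as Rplp0, Rplp1 or Rplp2, through the RefSeq accession that each probe carries on the array, and pseudogenes were left out. This gave 91 of the 56605 probes on the array, for 54 genes. The question was whether these genes moved together when C5aR+ LysoDCs were given C5a, and whether the probes of Rpl14 and Rpl13a did what the other probes did. LysoDCs are mononuclear phagocytes that make lysozyme and reside in Peyer's patches, lymphoid follicles in the wall of the small intestine. C5aR is the receptor for C5a, a fragment released from complement component C5. The cells of both groups were mouse Peyer's patch cells, enriched with CD11c beads, sorted as C5aR+ LysoDCs and kept in medium with CSF-1 and a factor the labels spell CFS-2. In 3 samples the C5a dose was 0 nM (untreated), and 3 samples received 100 nM recombinant C5a for 3 h. Mouse strain, age, number of animals, pooling and the culture time of the untreated samples are not given in the sources used here. Nothing states that replicates came from separate animals or cultures, so the p values cover only sample-to-sample spread, part of which may be technical.

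Each large ribosomal subunit joins rRNA to a fixed set of proteins, most of them present in 1 copy. The subunit holds the peptidyl transferase centre, where peptide bonds form, and the tunnel through which the new chain leaves. In mammals the mRNAs of these proteins generally begin with a run of pyrimidines, the terminal oligopyrimidine motif, through which growth signalling controls their translation. Several of these genes, such as Rplp0 and Rpl13a, are in wide use as reference genes for quantitative PCR.

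Signals are given as log2 processed signal relative to the 75th percentile of each array, taken over probes above background on every array, and differences are C5a minus untreated with n = 3 per group. A probe was called where its Benjamini-Hochberg adjusted p, over all 4958 probes kept, was under 0.05 in limma. The arrays were dim and uneven: 2728 to 6959 probes per array were well above background, and the 75th percentile of processed signal ran from 108.7 to 459.5 before scaling. The sorted identity was checked on 12 markers of mononuclear phagocytes, of which 10 were kept, among them Lyz1, Lyz2, Itgax and C5ar1, while Cx3cr1 and Mertk were above background on no array. Their summed level, in multiples of the 75th percentile, was 42.14 to 49.64 in untreated and 38.16 to 46.04 in C5a samples. Of the markers of other cells, Cd79b was the only 1 of 6 kept for B cells, at 0.04 to 0.13 in untreated and 0.02 to 0.12 in C5a samples, and Xbp1 the only 1 of 4 for plasma cells, at 0.26 to 0.66 and 0.29 to 0.69. No marker of T cells, epithelium, neutrophils or red cells was kept. The part of these levels in the results below was not tested. In such bulk samples fewer cells of a type and less RNA per cell cannot be told apart.

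Most large subunit probes were detected on every array. Of the 91 probes, 80 exceeded background clearly on all 6 arrays, and 81 to 85 did so on each array. With probes above background on at least 3 arrays kept, 84 probes of 49 genes entered the comparison. The 7 probes not kept were those of Rpl10l, Rpl39l, Rpl3l, Rpl7l1 and Rpl37, 1 of 3 probes of Rpl30 and 1 of 2 of Rpl9. Rpl10l, Rpl39l and Rpl3l are paralogs known mainly from testis and muscle, and their probes were above background on 0 of 6 arrays, as was that of Rpl7l1, which encodes a protein related to Rpl7. The Rpl37 probe was on 0 arrays too, whereas the probe of its retrocopy Rpl37rt was on all 6. Since the files hold no probe sequences, signal of a gene and of its copies cannot be told apart here: the symbol table lists 201 annotated pseudogenes for 40 of the 54 genes, up to 24 for Rpl31, with 6 for Rpl13 and 1 each for Rpl14 and Rpl13a.

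As a group the large subunit probes hardly differed between C5a and untreated cells. Of the 84 probes 0 were called by limma, with 0% called over all kept probes. At an unadjusted limma p under 0.05 there were 4 (4.76%), against 2.38% of all kept probes. C5a was the higher in 3 and the lower in 1, where 1.59% and 0.787% of all kept probes were, and without the probes of Rpl14 and Rpl13a there were 2 of 82 (2.44%). The sign was positive for 47 and negative for 37 probes, and the median difference was 0.03, beside 0.033 over all kept probes. Differences were under 0.25 in size for 66 of the 84 probes (78.6%), beside 55.6% of all kept probes. The 95% interval lay within 1 log2 unit of 0 for 70 of 84 (83.3%), against 37.7% of all kept probes, so for most members the interval ended short of that size. The shares lay closer among probes above background on all 6 arrays, split by printed spots after the values had been seen. Under 0.25 were 91.9% of members and 91.6% of all such probes at 10 spots, and 72.1% and 69% at 1 spot. The interval lay within 1 log2 unit of 0 for 100% and 93.5% at 10 spots, and for 76.7% and 55% at 1 spot. A difference over 1 in size was seen in 4 members (4.76%), beside 3.77% of all kept probes. Among 1-spot probes above background on all 6 arrays, it was seen in 3 of 43 members, beside 16 of all 2108. The unadjusted limma p was under 0.05 in 3 of these 43 members (6.98%), beside 0.996%. In both counts the 3 were Rpl14, Rpl13a and Rpl13 (A_55_P2009588), each singled out below for its value, so neither share is a test of the members. Among kept 1-spot members without Rpl14 and Rpl13a, the unadjusted limma p was under 0.05 in 2 of 45 (4.44%), beside 2.51% of all kept 1-spot probes. By array, the median level of the 82 members other than Rpl14 and Rpl13a was 0.10, -0.06 and -0.02 in untreated 1, 2 and 3 and 0.15, -0.01 and 0.11 in C5a 1, 2 and 3. The medians of the groups overlap, while between samples of the same replicate number the C5a median was the higher in 3 of 3 pairs, by 0.05, 0.05 and 0.13, where the median of all kept probes differed by 0.01, -0.04 and 0.00. Probe by probe, 23 of the 84 members (27.4%) moved in 1 direction in all 3 pairs, beside 25.3% of all kept probes. C5a was the higher in all 3 pairs in 17 of the 84 members, beside 14.3% of all kept probes. It was the lower in all 3 in 6 of the 84, beside 11%.

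Rpl14 and Rpl13a were the members furthest from the rest, and both were singled out with their values known, so their values are a description with no test. Rpl14, whose protein lies on the surface of the large subunit, has 1 probe, A_55_P2070913. It read -0.76, -2.27 and -1.86 in untreated 1, 2 and 3 and 0.73, 0.61 and 0.17 in C5a 1, 2 and 3. All 3 C5a samples were above all 3 untreated samples, with untreated 1 the nearest. The group means were -1.63 ± 0.78 and 0.51 ± 0.30 (SD, n = 3), a difference of 2.13 (SE 0.43) or 4.39-fold, the highest of all 4958 kept probes. Rpl13a, which encodes the protein known as the GAIT complex subunit that represses translation after interferon-gamma, has 1 probe, A_55_P2058953. Its signal was -0.28, -0.43 and -0.41 in untreated 1, 2 and 3 and -3.40, -3.30 and -1.68 in C5a 1, 2 and 3. Here all 3 C5a samples were below the untreated samples, which lay close together, and C5a 3 was the least low. Means of -0.37 ± 0.08 and -2.79 ± 0.97 (SD, n = 3) gave a difference of -2.42 (SE 0.48), 5.37-fold lower with C5a and the 10th lowest of all kept probes. With normexp background correction (offset 50) in place of the processed signal the folds were smaller, 2.61-fold higher for Rpl14 and 2.80-fold lower for Rpl13a. The offset is added to every spot, which by itself shrinks the folds of dim spots. Against the median of the other 82 member probes, Rpl14 differed by 2.104 and Rpl13a by -2.454.

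Both readings came from a single printed spot. The median brightness of the Rpl14 spot was 132, 92 and 58 in untreated 1, 2 and 3 and 270.5, 515 and 192 in C5a 1, 2 and 3, over a local background of 33 to 37. That of the Rpl13a spot was 143, 346 and 121 in untreated and 60.5, 60 and 73 in C5a samples, over 30 to 37. Neither spot was saturated, and both exceeded background clearly on every array. The 18 spots of kept probes within 10 rows and columns of the Rpl14 spot had a median difference of 0.05 (-0.35 to 1.02), and the 42 around the Rpl13a spot one of -0.06 (-1.76 to 0.60). No second probe for either gene was on the array by this rule, so the differences could not be set against another probe of the same transcript.

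The promoters of these genes were read to see whether Rpl14 and Rpl13a lack the pyrimidine run of their class. In the RefSeq promoter table of GRCm38.p6, 42 of the 54 genes matched, and 23 (54.8%) held a run of at least 8 pyrimidines (C or T) that began with C, on the strand of the gene and within 25 bases of a listed start. Over all 27025 genes of the table the share was 17.7%, and over the 25 small subunit protein genes it was 48%. On the opposite strand it was 11.9% for the large subunit genes and 19.6% for all genes. The search settings were chosen after the windows of the members had been seen, and a match is a description, not a site in use. The runs of Rpl13a and Rpl27a go on for 1 base past the end of the window printed. The windows below run from 15 bases before the listed start, which is base 16, and are written 5′ to 3′ on the strand of the gene, with the run in capitals. They show Rpl14 and Rpl13a, then 3 genes with probes near 0, and Rplp0, whose window holds no run.
Rpl14, chr9:120571502-120571531, plus strand: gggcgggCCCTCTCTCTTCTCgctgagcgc
Rpl13a, chr7:45128731-45128760, minus strand: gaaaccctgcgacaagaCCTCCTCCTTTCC
Rpl15, chr14:18270972-18271001, minus strand: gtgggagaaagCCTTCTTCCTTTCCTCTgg
Rpl27a, chr7:109519180-109519209, plus strand: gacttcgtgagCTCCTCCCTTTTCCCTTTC
Rplp2, chr7:141447636-141447665, plus strand: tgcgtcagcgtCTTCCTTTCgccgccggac
Rplp0, chr5:115559452-115559481, plus strand: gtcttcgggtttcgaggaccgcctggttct
Rpl14 and Rpl13a thus both held such a run, of 14 bases each, as did Rpl15 (17 bases), Rpl27a (20 bases) and Rplp2 (9 bases), whose kept probes differed by -0.17 to 0.12 between the groups.

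The stalk proteins, which recruit translation factors to the ribosome, stayed near 0. The stalk is built on Rplp0, with Rplp1 and Rplp2 as its acidic dimers and Rpl12 at its base, and its 6 kept probes differed by -0.09 to 0.12. Rplp0 read 0.93, 1.04 and 0.82 in untreated and 0.93, 0.79 and 0.93 in C5a samples. The difference was -0.05 (SE 0.24), and its 95% interval ran from -0.62 to 0.53. The groups overlap, with untreated 2 the highest and C5a 2 the lowest. Rplp2 read 2.53, 2.23 and 2.57 in untreated and 2.74, 2.37 and 2.57 in C5a samples, which overlap as well (0.12, SE 0.26). For Rplp1 a 10-spot probe and a 1-spot probe gave -0.08 and -0.09, and both Rpl12 probes gave 0.04 and 0.07.

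Rpl5 and Rpl11, which carry the 5S rRNA and bind Mdm2 when ribosome assembly is disturbed, each had 1 kept probe. Rpl5 read -1.85, -1.42 and -0.92 in untreated and -1.75, -1.77 and -1.50 in C5a samples, and so differed by -0.28 (SE 0.32). Rpl11 read 1.30, 1.25 and 1.49 in untreated and 1.12, 1.07 and 1.32 in C5a samples, and so differed by -0.18 (SE 0.25). In both genes the groups overlap. Between same-numbered samples Rpl11 differed by -0.18 in all 3 pairs, and Rpl5 by 0.10, -0.35 and -0.59. Neither probe was called (limma adjusted p = 0.9997 for each).

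Near the peptidyl transferase centre, Rpl8 and Rpl10 differed by -0.03 (SE 0.26) and 0.22 (SE 0.28). Rpl3, a long protein that reaches this centre, had 3 kept probes, all with negative differences. Probe A_66_P126077 read -3.41, -2.99 and -2.91 in untreated and -3.91, -3.68 and -3.61 in C5a samples. Its groups did not overlap, and it differed by -0.63 (SE 0.27, limma adjusted p = 0.9997). The 10-spot probe and the other 1-spot probe of Rpl3 differed by -0.12 and -0.10.

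Among the 9 genes of the peptide tunnel and its exit, where chaperones and targeting factors dock, the 19 kept probes ran from -0.46 to 0.84. The 3 Rpl17 probes, all of 10 spots, gave 0.04, 0.03 and 0.03, and both Rpl31 probes gave 0.08 and 0.07. Rpl4 (0.16), Rpl19 (0.17) and Rpl22 (-0.14) were single probes within 1 SE of 0, while Rpl35 read 2.21, 1.47 and 1.66 in untreated and 2.40, 1.87 and 2.24 in C5a samples (0.39, SE 0.31). The 5 Rpl39 probes ran from -0.24 to -0.01. Both ends of the range came from probes in which C5a 1 stood apart. For Rpl26, A_55_P2156409 read -3.50 in C5a 1 and -1.74 to -1.33 in the other 5 samples, a difference of -0.46 (SE 0.58) that became 0.25 without C5a 1. The other Rpl26 probes differed by 0.25 (SE 0.24) and 0.20 (SE 0.24), each with all C5a samples above all untreated samples. For Rpl23a, A_55_P2109875 read -4.47 in C5a 1 beside -1.69 and -2.21 in C5a 2 and 3, and its difference of 0.84 (SE 0.68) became 1.68 without C5a 1. That probe was above background on 1 untreated and 2 C5a arrays, and the 10-spot Rpl23a probe gave 0.19.

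Proteins of the surface and of the bridges to the small subunit (Rpl24, Rpl30, Rpl38, Rpl41) had 7 kept probes between -0.13 and 0.33. Rpl38, whose loss in mice alters the translation of Hox mRNAs, read 1.68, 1.29 and 1.03 in untreated and 1.70, 1.56 and 1.73 in C5a samples (0.33, SE 0.28). The C5a samples overlap untreated 1 alone, and the same-numbered pairs differed by 0.01, 0.27 and 0.70. Both 10-spot Rpl30 probes gave 0.28. Of the paralogs, Rpl22l1 gave -0.26 (SE 0.33). Rpl36al, an intronless copy of Rpl36a, had a probe, A_55_P2050040, at -2.65, -3.39 and -3.85 in untreated and -2.62, -1.49 and -1.78 in C5a samples. The groups did not overlap, untreated 1 and C5a 1 lying close together, and the difference was 1.34 (SE 0.43, limma adjusted p = 0.9997). It was above background on 1 untreated and 2 C5a arrays, and the other Rpl36al probe gave 0.04. The remaining 37 kept probes, of 22 genes, ran from -0.31 to 0.33. Among them Rpl35a, mutated in some cases of Diamond-Blackfan anaemia, gave 0.33 (SE 0.26), and Rpl36a (A_55_P2102816) and Rpl7a (A_55_P2001347) gave -0.31 each, or 0.03 and 0.01 without C5a 1.

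Most of these other members lay closer to 0. The 10-spot probes of Rpl9 and Rpl29 both gave a difference under 0.01 in size, and those of Rpl28 (-0.01) and Rpl37a (0.03) little more. Rpl37a read 2.25, 2.08 and 2.23 in untreated and 2.47, 1.98 and 2.18 in C5a samples, with C5a 1 the highest and C5a 2 the lowest of all 6. Rpl9 read 0.73, 0.68 and 0.83 in untreated and 1.06, 0.45 and 0.71 in C5a samples, again with the C5a samples on both sides of the untreated ones. Rpl6 gave 0.00 and -0.02 at its 10-spot probes and 0.13 at its 1-spot probe, and the pairs of 10-spot probes of Rpl18 (-0.02 each), Rpl27a (0.07 and 0.08) and Rpl36 (0.03 and -0.04) were as near to each other. Rpl34 (-0.10), Rpl32l (0.10), Rpl21 (0.14) and Rpl32 (-0.03) had 1 kept probe each, with SEs of 0.25 to 0.31.

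Probes of 1 gene mostly gave the same difference. For the 26 genes with at least 2 kept probes (61 probes), the range of the differences within a gene had a median of 0.12 and was under 0.25 in 19 genes. It was over 0.5 in 5: Rpl13 (1.37), Rpl36al (1.29), Rpl26 (0.71), Rpl23a (0.65) and Rpl3 (0.52). Signs differed between probes in 9 of the 26 genes. Each probe was also set against the mean of the other kept probes of its gene, which does not depend on scaling between arrays. Of 42 such contrasts, 0 were called by limma over all 516 contrasts of the array, where 0% were, and 3 had an unadjusted p under 0.05, beside 5.23% of all. These were 2 of Rpl13, which share probes, and that of A_66_P126077 of Rpl3 (-0.51, SE 0.19, limma adjusted p = 0.822).

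Rpl13 showed the widest disagreement, and was singled out for it. Its 1-spot probe A_55_P2009588 read -0.95, -0.34 and -0.75 in untreated and 0.40, 0.56 and 0.94 in C5a samples. All C5a samples were above all untreated samples, and the difference was 1.31 (SE 0.30, 95% interval 0.61 to 2.01, limma adjusted p = 0.9997). Its 10-spot probe A_55_P2011235 read 0.58, 0.49 and 0.64 in untreated and 0.73, 0.20 and 0.59 in C5a samples, which overlap and differ by -0.06 (SE 0.27). The remaining probe, A_55_P1991151, gave 0.66 (SE 0.44, limma adjusted p = 0.9997), with C5a 1 among the untreated samples. Set against the other probes, A_55_P2009588 read 0.19, 1.20 and 0.63 in untreated and 1.77, 1.66 and 1.64 in C5a samples, and differed by 1.01 (SE 0.30, limma adjusted p = 0.753). Its spot had a median brightness of 122, 312 and 90.5 in untreated and 298.5, 501 and 308.5 in C5a samples, and the 42 spots of kept probes around it had a median difference of -0.03 (-0.75 to 1.67).

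In all, 7 member probes (8.33%) had groups that did not overlap, against 5.79% of all kept probes. The C5a samples were the higher in 5, at Rpl14, Rpl13 (A_55_P2009588), Rpl36al (A_55_P2050040) and 2 Rpl26 probes, and the lower in 2, at Rpl13a and Rpl3 (A_66_P126077). Over all kept probes, 3.37% lay higher and 2.42% lower. Without Rpl14 and Rpl13a there were 5 of 82 (6.1%). Of the 7 member probes, 6 were printed at 1 spot, as were 279 of the 287 such probes among all kept probes. Among 1-spot probes above background on all 6 arrays, groups did not overlap in 5 of 43 members (11.6%), beside 4.79% of all. These 5 include Rpl14 and Rpl13a.

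The number of spots behind a probe moved with the spread of the differences, a split made after the values had been seen. The 37 members printed at 10 spots ran from -0.14 to 0.33, with an SD of 0.114 between probes, and the 95% interval of all 37 lay within 1 log2 unit of 0. The 47 kept members printed at 1 spot had an SD of 0.602, or 0.376 without Rpl14 and Rpl13a. Over all kept probes the SD was 0.141 for the 265 probes of 10 spots and 0.465 for 4693 of 1 spot. Among probes above background on all 6 arrays it was 0.14 (263 probes) and 0.305 (2108), and 0.576 for the 43 members of 1 spot. A 10-spot value is a mean, taken without outlier-marked spots unless all were marked, whereas a marked 1-spot value stayed in. The spots of a 10-spot probe can be read singly. The 370 single spot positions of the 37 member probes differed by -1.86 to 1.82, with an SD of 0.3; 25 (6.76%) were past 0.5 in size, 9 past 1, 2 past 1.31 and 0 past 2. Of the 9 past 1, 8 carried an outlier mark on some array. The 300 positions with no mark ran from -1.05 to 0.69 (SD 0.18). For the Rpl13 10-spot probe the spots ran from -0.61 to 0.15.

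Genes that work with the large subunit were compared on the same fit, and 0 of their probes were called, where 0% of all kept probes were. An unadjusted limma p under 0.05 was also found in 0, beside 2.38% of all kept probes, few of which would be looked for in lists this short. Groups did not overlap in 2 small subunit probes (3.64%) and 2 of assembly and export (7.41%), beside 5.79% of all kept probes. Small subunit proteins, with 55 kept probes of 33 of the 34 genes on the array, had 25 positive and 30 negative differences with a median of -0.012 and a range of -1.51 to 1.46. The 3 with the smallest p were Rps20 (1.46, SE 0.64), Rps25 (0.48, SE 0.30) and Rps15a (-0.81, SE 0.54). Rps20 read 0.19, 0.23 and -0.57 in untreated and -0.03, 1.77 and 2.51 in C5a samples, so that C5a 1 lay among the untreated samples. Rps15a read -2.46 in C5a 1 and -0.57 to -0.22 in the other 5 samples. The lowest difference of the list was that of Rps21 (-1.51, SE 1.24), named here for its value, which read 1.37, 1.37 and 1.39 in untreated and 1.91, 1.04 and -3.35 in C5a samples and gave 0.10 without C5a 3. Factors of large subunit assembly and export had 27 kept probes of 25 of 53 genes, 16 positive and 11 negative with a median of 0.039. Sbds (0.57, SE 0.27), which helps release the assembly factor eIF6, Sdad1 (0.58, SE 0.32) and the nucleolar protein Ncl (0.61, SE 0.34) had the smallest p. RNA polymerase I and rRNA modification had 11 kept probes of 10 of 29 genes, 8 positive and 3 negative with a median of 0.135, led by Nhp2 (1.23, SE 0.90), Polr1d (-0.25, SE 0.30) and Polr2l (0.26, SE 0.32). Growth signalling to these mRNAs had 12 kept probes of 11 of 21 genes, 6 of each sign with a median of -0.019. Its smallest p were for Cnbp, which binds pyrimidine-run mRNAs (0.93, SE 0.68), the translation repressor Eif4ebp2 (-0.58, SE 0.54) and Mdm2 (0.32, SE 0.35).

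Slide position did not split evenly between the groups: untreated 1 to 3 and C5a 1 lay in row 1 and C5a 2 and 3 in row 2. With row as a covariate, which rests the comparison on C5a 1 against the 3 untreated samples, the difference was 2.36 for Rpl14, -3.03 for Rpl13a and 1.08 for Rpl13 (A_55_P2009588). Row 2 held C5a samples alone and gives no difference of its own.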

How the data were processed

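Per the labels, total RNA of 6 samples was labelled with Cy3 and hybridised to 1-colour Agilent arrays. Feature Extraction 10.10.1.1 (protocol GE1_1100_Jul11) read the arrays of design 074809, per the file headers, and the deposited scanner files hold the intensity of each spot, background-subtracted within the array and not scaled between arrays. The deposited series table holds log2 values; 98.9% of its differences between arrays lay within 0.01 of those of log2 processed signal less the 75th percentile over all probes, and the baseline subtracted per probe is unknown. Its column medians were 0.17, -0.08 and 0.18 for untreated and 0.01, -0.02 and 0.22 for C5a samples.

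Control spots (of 62976) were left out, and the spots of a probe were averaged as log2, without outlier-marked spots (112 to 138 per array). No spot was saturated. Of 56605 probes, 32994 were named through RefSeq accessions (GRCm38.p6). Values were scaled by the 75th percentile over 2371 probes well above background on all 6 arrays, probes above background on at least 3 arrays were kept, and groups were compared with limma 3.58.1 in R 4.3.3 (lmFit, eBayes, Benjamini-Hochberg). The comparison of the groups was tested on simulated data with known differences. The within-gene contrasts were run on the same simulated data, but their differences and calls were not checked. Members, lists and the split by spots were chosen with earlier results of these data known. Named were all probes of Rpl14 and Rpl13a, the genes listed by role, the 5 member probes of smallest p in each direction, the 5 genes with the widest range between probes, and 3 probes per pathway list. Some results under this rule are not reported here. Same-numbered samples deviated together (correlations 0.217, 0.273 and 0.383), so the numbers were taken as pairs in a blocked alternative. With 6 arrays, the precision of each value is limited by their number.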

Additional observations from a re-analysis of the deposited data

How the results depend on the processing

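Under all 16 other settings, 0 member probes were called by limma. The replicate block (replicate number as a pairing) called 0 probes in all and changed no call. Without a filter on dim probes 48 of 56605 probes were called, 0 of them members. With slide row as a covariate 3 within-gene contrasts were called, 1 of them a member, Rpl26 (A_55_P2156409, -2.17, adjusted p = 0.0408), which rests on C5a 1. The median member difference was 0.392 with the percentile over all probes, 0.393 in the series table and 0.114 with slide row, where the medians of all kept probes were 0.395, 0.397 and 0.139. The member median less that of all kept probes was -0.003 as reported, 0.123 with normexp and 0.435 without a filter, and -0.061 to 0.054 over the other settings. The Rpl14 difference from the other members was 1.386 with normexp, and that of Rpl13a was -1.485 with normexp and -3.145 with slide row. Leaving out 1 sample gave C5a minus untreated differences, not set against the other members, of 1.81 to 2.57 for Rpl14 and -2.98 to -2.12 for Rpl13a. Rpl14, Rpl13a, Rpl13 (A_55_P2009588), Rpl36al (A_55_P2050040) and Rpl3 (A_66_P126077) kept their sign in every alternative that could be fitted.

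Small differences did not keep theirs. Of 50 named member probes, 33 changed sign in at least 1 alternative and 17 in none; with the 13 pathway probes named and without Rpl14 and Rpl13a, 41 of 61 did, and 0 calls changed. Scaling to the percentile over all probes takes another constant off each array, so it moves the difference of every probe by the same amount. The series table follows that scaling closely, and its list below is largely the same shift. The median of all kept probes moved from 0.033 to 0.395 and 0.397. The causes of the other sign changes were not tested. With the percentile over all probes, the differences of opposite sign were 0.327 for Rpl8, 0.224 for Rpl22, 0.32 for Rpl39 (A_55_P1957291), 0.183 for Rpl11, 0.316 for Rplp0, 0.057 for Rpl7a, 0.303 for Rpl13 (A_55_P2011235), 0.085 for Rpl5, 0.23 for Rpl41 (A_55_P2027819), 0.241 for Rpl3 (A_55_P2030802), 0.056 for Rpl36a, 0.282 for Rplp1 (A_55_P2155826), 0.1 for Rpl22l1, 0.354 for Rpl39 (A_55_P2182106), 0.125 for Rpl39 (A_55_P2857689), 0.26 for Rpl3 (A_55_P2913650), 0.303 for Rpl39 (A_55_P2923116), 0.268 for Rplp1 (A_55_P2933544), 0.336 for Rpl39 (A_65_P03435), 0.293 for Rpl41 (A_66_P107150) and 0.11 for Polr1d. In the series table, the differences of opposite sign were 0.327 for Rpl8, 0.22 for Rpl22, 0.317 for Rpl39 (A_55_P1957291), 0.183 for Rpl11, 0.317 for Rplp0, 0.057 for Rpl7a, 0.303 for Rpl13 (A_55_P2011235), 0.087 for Rpl5, 0.23 for Rpl41 (A_55_P2027819), 0.24 for Rpl3 (A_55_P2030802), 0.057 for Rpl36a, 0.287 for Rplp1 (A_55_P2155826), 0.093 for Rpl22l1, 0.353 for Rpl39 (A_55_P2182106), 0.127 for Rpl39 (A_55_P2857689), 0.257 for Rpl3 (A_55_P2913650), 0.303 for Rpl39 (A_55_P2923116), 0.27 for Rplp1 (A_55_P2933544), 0.333 for Rpl39 (A_65_P03435), 0.293 for Rpl41 (A_66_P107150) and 0.107 for Polr1d. With slide row, the differences of opposite sign were 0.172 for Rpl8, -0.036 for Rpl24 (A_52_P405893), -0.127 for Rpl12 (A_55_P1952690), 0.075 for Rpl39 (A_55_P1957291), -0.191 for Rpl13 (A_55_P1991151), -0.049 for Rpl24 (A_55_P2004333), 0.162 for Rpl13 (A_55_P2011235), -0.838 for Rpl23a (A_55_P2109875), 0.118 for Rplp1 (A_55_P2155826), 0.161 for Rpl39 (A_55_P2182106), 0.462 for Rpl39 (A_55_P2857689), 0.565 for Rpl39 (A_55_P2923116), 0.298 for Rplp1 (A_55_P2933544), 0.327 for Rpl41 (A_66_P107150), 0.536 for Rps21, 0.12 for Polr1d and 0.468 for Eif4ebp2. With normexp, the differences of opposite sign were 0.032 for Rpl8, -0.094 for Rpl36al (A_51_P209444), -0.095 for Rpl24 (A_52_P405893), -0.031 for Rpl17 (A_55_P1954896), -0.065 for Rpl17 (A_55_P1978615), 0.018 for Rpl13 (A_55_P2011235), -0.01 for Rpl31 (A_55_P2038299), 0.011 for Rpl39 (A_55_P2182106), 0.265 for Rpl39 (A_55_P2923116), -0.04 for Sbds, -0.062 for Sdad1, -0.195 for Nhp2, -0.106 for Polr2l and -0.119 for Cnbp. With outlier spots kept, the differences of opposite sign were 0.016 for Rpl22, 0.019 for Rpl3 (A_55_P2030802), -0.051 for Rpl31 (A_55_P2038299) and 0.008 for Rpl39 (A_55_P2182106). With quantile normalization, the differences of opposite sign were 0.018 for Rpl39 (A_55_P2182106) and 0.054 for Rpl39 (A_55_P2923116). Over the fits that each left out 1 sample, the differences whose sign turned ranged from -0.138 to 0.083 for Rpl8, -0.215 to 0.303 for Rpl36al (A_51_P209444), -0.223 to 0.019 for Rpl22, -0.044 to 0.157 for Rpl24 (A_52_P405893), -0.015 to 0.123 for Rpl12 (A_55_P1952690), -0.015 to 0.113 for Rpl17 (A_55_P1954896), -0.038 to 0.14 for Rpl12 (A_55_P1954907), -0.1 to 0.027 for Rpl39 (A_55_P1957291), -0.104 to 0.01 for Rplp0, -0.084 to 0.103 for Rpl17 (A_55_P1978615), -0.506 to 0.012 for Rpl7a, -0.035 to 0.31 for Rpl24 (A_55_P2004333), -0.169 to 0.094 for Rpl13 (A_55_P2011235), -0.033 to 0.113 for Rpl17 (A_55_P2011674), -0.284 to 0.098 for Rpl41 (A_55_P2027819), -0.293 to 0.052 for Rpl3 (A_55_P2030802), -0.497 to 0.025 for Rpl36a, -0.179 to 0.044 for Rplp1 (A_55_P2155826), -0.836 to 0.246 for Rpl26 (A_55_P2156409), -0.093 to 0.058 for Rpl39 (A_55_P2182106), -0.586 to 0.19 for Rpl39 (A_55_P2857689), -0.371 to 0.171 for Rpl39 (A_55_P2923116), -0.289 to 0.113 for Rplp1 (A_55_P2933544), -0.101 to 0.021 for Rpl39 (A_65_P03435), -0.267 to 0.164 for Rpl41 (A_66_P107150), -0.036 to 0.202 for Rpl31 (A_66_P140704) and -2.533 to 0.099 for Rps21.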
